A study of Mus musculus with 6 samples.

Results

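The acyl-CoA thioesterase family was examined in whole hearts of α1r/rα2s/s and α1s/sα2s/s mice. It comprised the 10 genes of the deposited count table named Acot1, Acot2, Acot4, Acot6, Acot7, Acot8, Acot9, Acot11, Acot12 and Acot13, out of 54532 genes. The members were taken by name, but the family itself was chosen by the measured log2 fold change of Acot1, which was among the largest between these genotypes. The values of Acot1, and of its near copy Acot2, which was likewise known to differ, are therefore a description to which no p is attached and from which nothing is inferred.

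Whole-heart RNA came from 6 male mice, 3 per genotype, all 3 months old. The α1r/rα2s/s mice (numbers 368, 369 and 370) carried the naturally resistant α1 isoform of the Na/K-ATPase, the sodium pump that serves as the receptor of cardiotonic steroids. The α1s/sα2s/s mice (379, 380 and 381) carried a knock-in α1 made sensitive to these steroids by amino acid substitutions. Both genotypes shared the sensitive α2 isoform and a C57Bl6 background, and the substitutions were present in every tissue, so the hearts cannot show in which cells a difference began. The comparison asked how a pump with high affinity for circulating steroids bears on the hearts of unchallenged animals. The libraries held 19309312 to 20470065 counts. The 7 cardiomyocyte markers summed to 44076 to 54734 CPM (counts scaled to a common library size) in α1r/rα2s/s and 48538 to 52736 CPM in α1s/sα2s/s hearts, and Alb, the liver's albumin gene, had 0 counts in every heart. Of the markers of other cells, 0 were called, beside 1.44% of all genes tested, a share too small for that count to say anything. All 5 of macrophages (median log2 fold change -0.31) and all 4 of smooth muscle (-0.39) had a negative sign, with sums of 128 to 209 against 119 to 142 CPM and 104 to 145 against 99.6 to 112 CPM. Fibroblast markers were positive in 2 of 6 (-0.20) and endothelial markers in 2 of 5 (-0.06). Skeletal muscle markers were positive in 3 of 3 tested (0.52), namely Acta1, Ckm and Tnnt3. The paper counts Acta1 (α-skeletal actin) among the cardiac fetal genes. The listed markers with too few counts to be tested went the other way or were absent. Myh1 had 1, 7 and 0 counts in α1r/rα2s/s and 0 in each α1s/sα2s/s heart. Myh2 had 1, 3 and 2 against 0, 1 and 0 counts, and Myh4 had 0 in every heart. Erythroid markers were positive in 5 of 5 (0.66). The erythroid sum was 536 to 1272 against 401 to 3187 CPM, the highest being mouse 380, without which the log2 fold changes of Acot1 and Acot2 were 1.37 and 0.79. The part of these cells in the differences was not tested. The share of counts on mitochondrially encoded genes was 23.4 to 24.4% in α1r/rα2s/s and 25.0 to 26.0% in α1s/sα2s/s hearts, without overlap. With these genes and the globin genes left out, the log2 fold changes of Acot1 and Acot2 were 1.22 and 0.68.

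Acyl-CoA thioesterases split activated fatty acids, the acyl-CoAs, into free fatty acid and coenzyme A. They thereby set how much acyl-CoA is left for oxidation, lipid synthesis and protein acylation, and they return coenzyme A to its pool. Type I members have an α/β-hydrolase fold and lie side by side in the genome, type II members have a hotdog fold and are scattered, and members of both types work in the cytosol, in mitochondria and in peroxisomes. In the heart, which burns mainly fatty acids, Acot1 is known as a target of the nuclear receptor PPARα.

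Acot1 (ENSMUSG00000072949) encodes the cytosolic and Acot2 (ENSMUSG00000021226) the mitochondrial type I enzyme, both acting on long-chain acyl-CoAs. On GRCm38, Acot2 lay at chr12:83987861-83993873 and Acot1 at chr12:84009490-84018371, both on the plus strand with 15616 bases between them. Aligned over 1236 coding bases of the GENCODE M21 transcripts, the pair was identical at 1178, or 95.3%. Each has 3 coding exons, with 419 codons in Acot1 and 453 in Acot2. The main difference was at the start. The first 123 coding bases of Acot2 (exon 1, chr12:83987902-83988024), which hold the known mitochondrial leader of the protein, had no counterpart in Acot1. They are shown because they separate the mitochondrial from the cytosolic member.
Acot2 leader: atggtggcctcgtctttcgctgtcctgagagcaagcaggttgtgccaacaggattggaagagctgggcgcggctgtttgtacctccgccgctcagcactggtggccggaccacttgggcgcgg

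Within the shared coding sequence, the 60 bases at which the copies differed most held 13 mismatches, marked by capitals. They lay in exon 3, at chr12:84016942-84017001 in Acot1 and chr12:83992664-83992723 in Acot2. They are shown as the stretch at which a short read is most easily assigned to 1 copy.
Acot1: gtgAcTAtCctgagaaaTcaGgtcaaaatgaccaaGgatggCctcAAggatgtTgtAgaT
Acot2: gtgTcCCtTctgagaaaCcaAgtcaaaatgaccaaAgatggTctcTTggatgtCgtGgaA

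The longest identical coding run, 273 bases, followed a few bases downstream in exon 3 (Acot1 chr12:84017006-84017278, Acot2 chr12:83992728-83993000). It is shown because a read from within it belongs to either copy.
Acot1 and Acot2: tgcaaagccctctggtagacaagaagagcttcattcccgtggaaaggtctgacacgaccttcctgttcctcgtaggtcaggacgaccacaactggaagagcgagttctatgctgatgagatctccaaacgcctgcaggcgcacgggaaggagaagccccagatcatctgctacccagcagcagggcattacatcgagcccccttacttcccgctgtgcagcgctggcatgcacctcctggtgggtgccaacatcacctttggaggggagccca

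Of all words of 100 bases in the annotated Acot1 transcripts, 9.32% also occurred in Acot2, and 17.1% of those of Acot2 occurred in Acot1. At 150 bases the shares were 5.50% and 10.2%. Most of each transcript was thus distinguishable at these lengths, while the read length and the treatment of reads with several matches are not given in the sources used here. The counts of both copies are uncertain to that extent.

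Acot1 stood at 20.6, 16.6 and 15.9 CPM in the α1r/rα2s/s hearts of mice 368, 369 and 370, and at 42.1, 32.4 and 49.0 CPM in the α1s/sα2s/s hearts of mice 379, 380 and 381. Every α1s/sα2s/s heart lay above every α1r/rα2s/s heart. The mean was 17.7 ± 2.54 CPM (SD, n = 3) in α1r/rα2s/s and 41.2 ± 8.34 CPM (SD, n = 3) in α1s/sα2s/s hearts, 2.32-fold higher, with a log2 fold change of 1.22 (SE 0.14, 95% interval 0.92 to 1.51). RNA of whole hearts cannot tell more cells of a type from more RNA per cell.

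Acot2 stood at 88.6, 79.5 and 76.1 CPM in the same α1r/rα2s/s hearts and at 134, 111 and 147 CPM in the α1s/sα2s/s hearts. Again the genotypes did not overlap. The mean went from 81.4 ± 6.48 to 131 ± 18.3 CPM (SD, n = 3 each), 1.61-fold, with a log2 fold change of 0.68 (SE 0.10, 95% interval 0.48 to 0.89). With the counts of both copies added, so that no read could be misassigned between them, the level was 99.1 ± 8.998 CPM in α1r/rα2s/s and 172 ± 26.6 CPM in α1s/sα2s/s hearts, a log2 fold change of 0.79 (SE 0.10).

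The copies also moved together among hearts of 1 genotype, a spread that the difference between genotypes does not enter. Mouse 368 was the highest α1r/rα2s/s heart for both genes, mouse 381 the highest α1s/sα2s/s heart and mouse 380 the lowest. That order of the α1s/sα2s/s hearts was not particular to the pair. Acot6, Acot7 and Acot9 also had mouse 381 highest and mouse 380 lowest, although the α1s/sα2s/s hearts were nearly equal for Acot6. Their highest α1r/rα2s/s heart was mouse 370 for Acot7 and Acot9 and mouse 369 for Acot6. On the log2 CPM scale, mouse 380 lay 0.32 below its genotype mean for Acot1 and 0.23 below it for Acot2, while mouse 381 lay 0.27 and 0.18 above. Over all 6 hearts, Acot2 had the highest Pearson correlation with Acot1 of the 14865 other tested genes (r = 0.998 on log2 CPM). The points share the genotype contrast and, for this pair, part of their sequence, so the coefficient is given as a description. The shared sequence bears on the order of the hearts too.

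The balance within the pair is likewise a description, since it is built from Acot1. Acot1 supplied 18.9, 17.3 and 17.3% of the counts of the pair in the α1r/rα2s/s hearts, and 23.9, 22.6 and 25.0% in the α1s/sα2s/s hearts. For mouse 368 the 95% Wilson interval was 17.3 to 20.5% and for mouse 380 it was 21.1 to 24.2%, which covers counting error alone and not the spread between mice. Acot1 thus remained the smaller part of the pair in every heart.

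**Figure D1:**
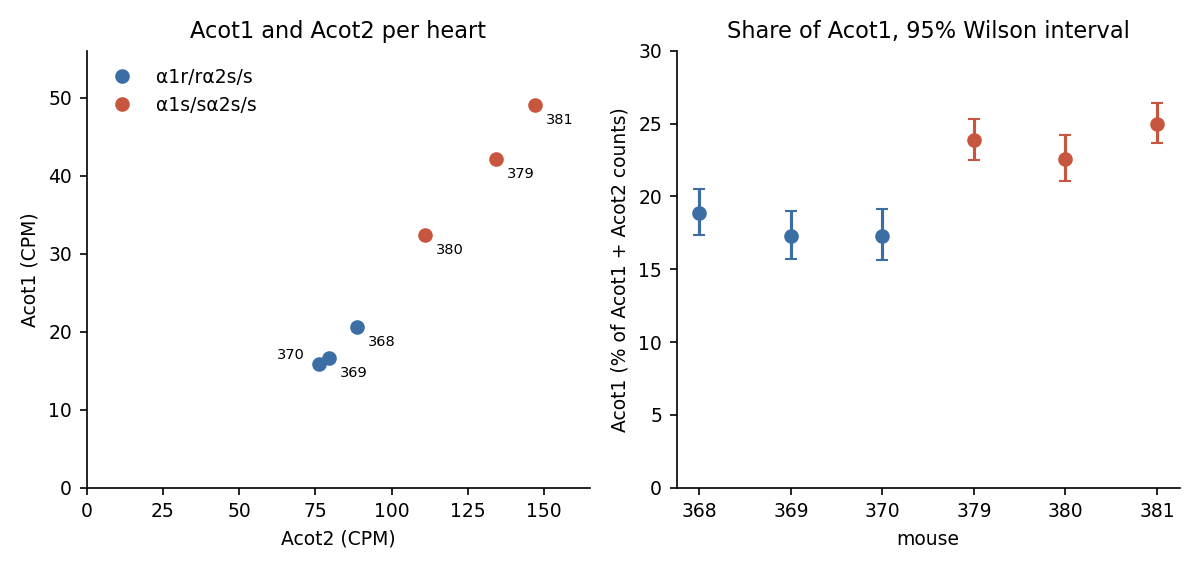
Left, Acot1 against Acot2 in CPM for each of the 6 hearts, labelled by mouse number; right, Acot1 as a percentage of the summed counts of both genes per heart, with 95% Wilson intervals. Blue points are α1r/rα2s/s and red points α1s/sα2s/s hearts. The α1s/sα2s/s hearts sit higher for both genes, and their Acot1 share of 22.6 to 25.0% lies above the 17.3 to 18.9% of the α1r/rα2s/s hearts; the intervals cover counting error alone.

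The next protein-coding genes most like Acot1 over the 6 hearts, by the same correlation, were Fxr2, an RNA-binding protein of the fragile X family (r = 0.997), Dhrs4, a peroxisomal dehydrogenase/reductase (r = 0.996), Arl2, a small GTPase (r = 0.992), and Saraf, a regulator of store-operated calcium entry (r = 0.990). Their differences between genotypes were smaller than that of Acot1, with log2 fold changes from 0.20 (Arl2) to 0.39 (Saraf). Among the other members, Acot7 ranked 191 (r = 0.935) and Acot13 ranked 1044 (r = 0.796). Acot9 (r = -0.60) and Acot11 (r = -0.59) ran the other way.

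The sequences just upstream of the pair were compared because the pair moved together. They are the RefSeq promoter windows on GRCm38.p6, which reach from 250 bases before to 50 bases after an annotated start. Windows were found for 8 of the 10 members, all but Acot6 and Acot13. Printed here are the bases upstream of the start of each gene as the count table gives it, on the plus strand, at chr12:83987611-83987860 for Acot2 and chr12:84009252-84009489 for Acot1.
Acot2 upstream: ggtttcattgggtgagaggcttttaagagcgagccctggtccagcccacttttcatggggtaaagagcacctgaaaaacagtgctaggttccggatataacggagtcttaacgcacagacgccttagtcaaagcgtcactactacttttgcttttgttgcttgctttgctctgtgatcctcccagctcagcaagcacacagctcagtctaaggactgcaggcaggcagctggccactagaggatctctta
Acot1 upstream: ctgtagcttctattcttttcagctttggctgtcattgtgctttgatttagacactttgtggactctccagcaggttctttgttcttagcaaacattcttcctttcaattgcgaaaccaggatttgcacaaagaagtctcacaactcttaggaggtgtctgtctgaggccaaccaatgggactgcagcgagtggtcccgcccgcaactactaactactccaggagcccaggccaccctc

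In contrast to the coding sequence, the 250 bases before the annotated starts aligned with identity at 129 of 188 bases, or 68.6%. Within these 250 bases, the longest run shared at any offset by the pair of windows was 9 bases. The core motif of nuclear receptors such as PPARα, AGGTCA, was searched exactly on both strands and was found in neither, while 16.3% of all 32851 windows in the table held it. The DR1 element, AGGTCANAGGTCA, which repeats that core motif with 1 base between, was searched on both strands with up to 2 mismatches. It was found in neither window of the pair and in 3.86% of all windows. Acot4 held a match with 2 mismatches, 13 bases upstream of the start, and Acot12 a match with 1 mismatch, 110 bases upstream, both on the reverse strand. A match is a description of the letters, and these windows hold no sequence farther upstream.

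The other type I members lay downstream on the same strand, Acot4 (ENSMUSG00000052392) at chr12:84038379-84048601 and Acot6 (ENSMUSG00000043487) at chr12:84100654-84111349. Both encode peroxisomal enzymes, and Acot4 is known for hydrolysing succinyl-CoA. Their coding identity to Acot1 was lower, 77.8% and 76.9%. Acot4 had 60, 86 and 40 counts in the α1r/rα2s/s and 62, 69 and 80 in the α1s/sα2s/s hearts, equal to 2.86, 4.11 and 2.01 against 3.08, 3.63 and 4.15 CPM. The genotypes overlapped, and the log2 fold change was 0.27 (SE 0.28, 95% interval -0.33 to 0.87, adjusted p = 0.707 by edgeR's quasi-likelihood test over all genes tested). Acot6 had 101, 107 and 57 counts against 77, 70 and 74, or 4.82, 5.11 and 2.86 against 3.82, 3.68 and 3.84 CPM. Here the α1s/sα2s/s hearts fell inside the α1r/rα2s/s range, with a log2 fold change of -0.18 (SE 0.24, 95% interval -0.69 to 0.34, adjusted p = 0.794 by edgeR). The antisense gene 4732463B04Rik overlaps Acot4 and had 1 to 10 counts per heart, and the use of strand in counting is not given in the sources used here.

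Nearby genes were tested in the same fit. Riox1, upstream of Acot2, differed by -0.42 on the log2 scale (adjusted p = 0.484), Dnal1, downstream of Acot6, by 0.00 (adjusted p = 0.9996), and Acot3, which lies between Acot4 and Acot6 and also encodes a peroxisomal type I enzyme, by -0.74 (adjusted p = 0.487) with 10 to 32 counts per heart. None of the 3 passed edgeR's test. Acot5, the remaining gene of the cluster, had 0 counts in all 6 hearts. The summed counts of all genes named Acot1 to Acot6 gave a log2 fold change of 0.74 (SE 0.10), most of them being counts of Acot2.

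Acot7 (ENSMUSG00000028937, chr4:152178134-152271855, plus strand) encodes a cytosolic type II enzyme for long-chain acyl-CoAs that is best known from brain. It stood at 46.3, 43.3 and 47.3 CPM in the α1r/rα2s/s and at 53.2, 52.1 and 54.6 CPM in the α1s/sα2s/s hearts. The genotypes did not overlap, and the spread was small, with means of 45.6 ± 2.06 and 53.3 ± 1.27 CPM (SD, n = 3 each). The log2 fold change was 0.22 (SE 0.08, 95% interval 0.06 to 0.38). It did not pass the threshold over all genes (adjusted p = 0.172, unadjusted p = 0.00952 by edgeR). No word of 50 bases in its transcripts occurred in another gene.

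Acot11 (ENSMUSG00000034853, chr4:106744555-106804998, minus strand) encodes a cytosolic type II enzyme with a lipid-binding START domain, known from brown fat. Its levels were 19.96, 16.2 and 22.5 CPM in the α1r/rα2s/s and 15.3, 19.9 and 15.9 CPM in the α1s/sα2s/s hearts. The ranges overlapped, with the lowest α1r/rα2s/s heart below the highest α1s/sα2s/s heart. The log2 fold change was -0.20 (SE 0.14, 95% interval -0.49 to 0.09, adjusted p = 0.537 by edgeR). Fam151a, on the opposite strand, overlaps the 3′ side of Acot11 and had 0 to 4 counts per heart.

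Acot12 (ENSMUSG00000021620, chr13:91741512-91786148, plus strand), the cytosolic acetyl-CoA hydrolase known from liver, was at or near 0. It had 0 counts in each α1r/rα2s/s heart and 5, 0 and 3 counts in the α1s/sα2s/s hearts. It was not tested, and no fold is given because the mean of each genotype was below the 3 counts that a count of 0 allows. The antisense gene 4833422C13Rik overlaps its 5′ end by 361 bases and had 29 to 76 counts per heart.

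Among the mitochondrial members, Acot13 (ENSMUSG00000006717, chr13:24817948-24831540, minus strand), also known as Them2, encodes a small long-chain acyl-CoA thioesterase associated with mitochondria. It stood at 188, 175 and 194 CPM in the α1r/rα2s/s and at 197, 206 and 228 CPM in the α1s/sα2s/s hearts. The genotypes did not overlap, although the highest α1r/rα2s/s and the lowest α1s/sα2s/s heart nearly met. The means were 186 ± 9.80 and 210.1 ± 16.02 CPM (SD, n = 3 each), and the log2 fold change was 0.18 (SE 0.08, 95% interval 0.02 to 0.34). It did not pass the threshold (adjusted p = 0.294, unadjusted p = 0.0327 by edgeR).

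Acot9 (ENSMUSG00000025287, chrX:155262443-155297654, plus strand), a mitochondrial type II enzyme of broad chain-length range, was the only member whose α1s/sα2s/s hearts all lay below its α1r/rα2s/s hearts. Its levels were 23.0, 22.2 and 23.2 CPM against 21.1, 18.9 and 21.3 CPM. The log2 fold change was -0.16 (SE 0.10, 95% interval -0.36 to 0.05, adjusted p = 0.481 by edgeR). Of its words of 50 bases, 15.2% also occurred in Acot10, a gene with a single coding exon that had 0 counts in every heart, and at 150 bases none did.

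Acot8 (ENSMUSG00000017307, chr2:164792765-164804882, minus strand), the peroxisomal type II member with a broad substrate range, had 97 to 131 counts per heart. Its levels were 6.25, 5.88 and 4.87 CPM in the α1r/rα2s/s and 5.71, 6.52 and 6.69 CPM in the α1s/sα2s/s hearts. The ranges overlapped, and the log2 fold change was 0.15 (SE 0.18, 95% interval -0.23 to 0.53, adjusted p = 0.745 by edgeR). Its 3′ end overlaps Snx21 on the opposite strand by 1052 bases, and Snx21 had 356 to 444 counts per heart, more than Acot8 itself.

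Of the 10 members, 9 had enough counts to be tested. Only the pair for which the family was taken up, 2 members, was called at an adjusted p under 0.05, both higher in α1s/sα2s/s hearts, beside 0.78% of the 14866 genes tested that were called higher and 1.44% called in either direction. As the choice of the family fixed that count, nothing is read from it. The genotypes did not overlap for 5 of the 9, namely Acot1, Acot2, Acot7 and Acot13, which were higher, and Acot9, which was lower. Over all genes tested, 20% did not overlap in either direction and 10% were higher in every α1s/sα2s/s heart. Of the 7 tested members other than the pair, 3 did not overlap, 2 (Acot7 and Acot13) had an unadjusted p under 0.05, and 0 passed by edgeR or by DESeq2. DESeq2 gave no adjusted p for Acot4.

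**Figure D2:**
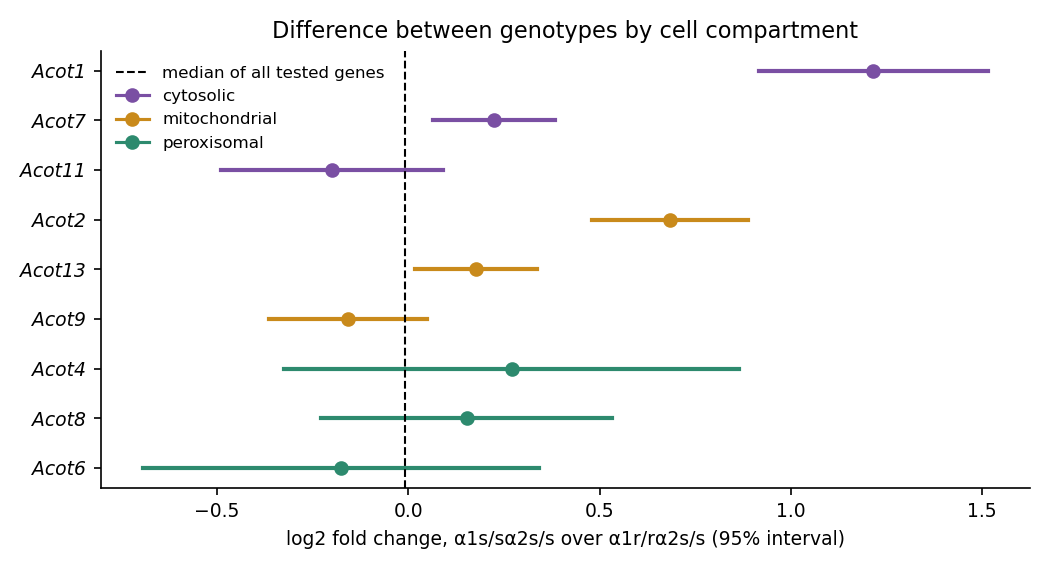
Log2 fold change of α1s/sα2s/s over α1r/rα2s/s hearts for the 9 tested members (points) with 95% intervals (lines), coloured by the compartment of the protein, and the median of all tested genes (dashed line, -0.01). Acot1 (1.22) and Acot2 (0.68) stand to the right, and the intervals of Acot7 and Acot13 begin just above 0, at 0.06 and 0.02.

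The spread between hearts of a genotype bears on how small a difference can be seen. It is described here from edgeR's gene-wise dispersion, which is not the dispersion of its quasi-likelihood test. The biological coefficient of variation was 7.06% for Acot7, 7.55% for Acot13, 8.23% for Acot9 and 8.90% for Acot2, all below the 11.1% common to all genes. For Acot1 it was 11.98%, and for Acot4 and Acot6, with the lowest counts, 21.3% and 18.5%. Acot6 was uneven between genotypes, with an SD of log2 CPM of 0.45 in α1r/rα2s/s and 0.03 in α1s/sα2s/s hearts, the first resting on mouse 370.

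Levels of different genes were compared as CPM per kilobase of the gene length in the files. Acot13 dominated, at 249.8 ± 13.2 in α1r/rα2s/s and 282 ± 21.5 in α1s/sα2s/s hearts (SD, n = 3 each), which was 75.7% and 71.7% of the summed level of the family. Acot2 followed at 37.1 ± 2.95 and 59.6 ± 8.32, and its share of the family went from 11.2 to 15.1%. Acot7 came next at 21.5 and 25.1. In α1r/rα2s/s hearts the order went on with Acot9 (10.03), Acot1 (4.52), Acot11 (3.23), Acot8 (2.84), Acot6 (0.665), Acot4 (0.449) and Acot12 (0).

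In α1s/sα2s/s hearts Acot1 ranked 4, at 10.5 ± 2.13, and Acot9 ranked 5, at 8.99 ± 0.592 CPM per kilobase, but the ranges of the 2 genes overlapped. In α1r/rα2s/s hearts, by contrast, every heart had less Acot1 than Acot9. The neighbours Acot11 and Acot8, and Acot6 and Acot4, overlapped in both genotypes. The ranges of all other neighbours did not overlap. These levels, and which ranges overlapped, depend on the length used. The overlaps above hold for the length in the files only. With that of the main coding transcript, chosen after seeing the data, α1r/rα2s/s levels were 7.80 for Acot1, 6.66 for Acot11, 4.92 for Acot8 and 1.26 for Acot6, each over 1.5 times higher, and the order in α1r/rα2s/s hearts was unchanged.

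**Figure D3:**
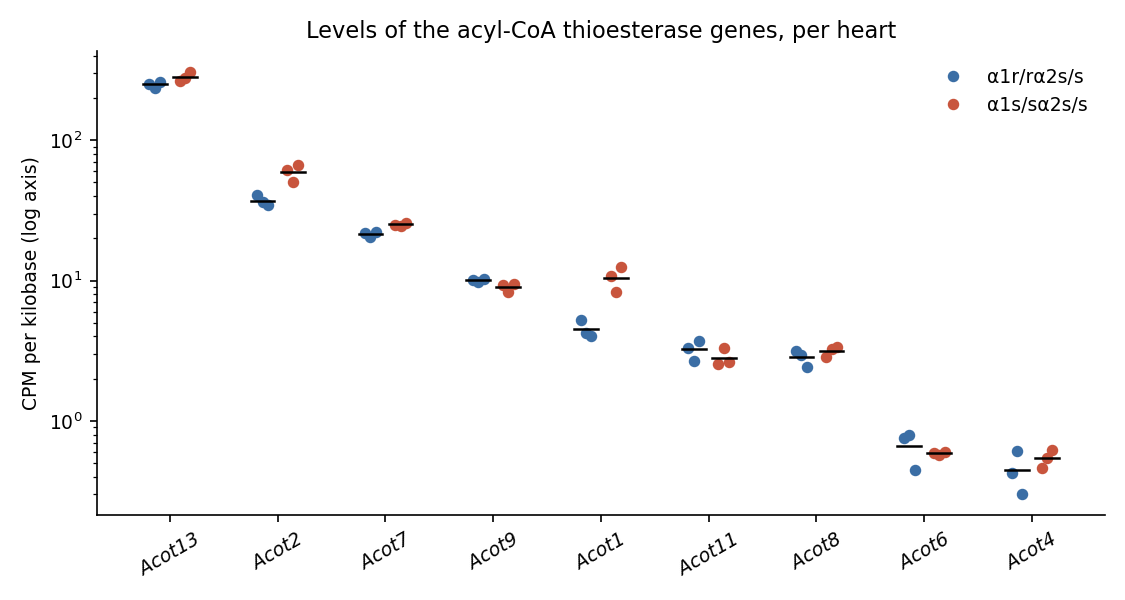
Level of 9 members in CPM per kilobase on a log axis, one point per heart, with blue for α1r/rα2s/s, red for α1s/sα2s/s and black bars for the means, ordered by the α1r/rα2s/s mean. Acot13 lies highest at 235 to 306 and Acot4 and Acot6 lowest, below 1, while Acot1 goes from 4.06 to 5.26 in α1r/rα2s/s to 8.27 to 12.5 in α1s/sα2s/s hearts; Acot12, at or near 0, is not drawn.

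Members were assigned to compartments from general knowledge of the mouse proteins, not from these data. Summed by compartment, the mitochondrial members (Acot2, Acot9 and Acot13) held most of the family's level, 297 ± 13.5 CPM per kilobase in α1r/rα2s/s and 351 ± 27.4 in α1s/sα2s/s hearts (SD, n = 3 each), a ratio of 1.18. Acot13 alone supplied 249.8 and 282 of these sums, so the split between compartments depends on where that gene is placed. The cytosolic members (Acot1, Acot7, Acot11 and Acot12) summed to 29.2 ± 1.67 and 38.5 ± 2.40, a ratio of 1.32. The peroxisomal members (Acot4, Acot6 and Acot8) summed to 3.95 ± 0.662 and 4.29 ± 0.337, a ratio of 1.09. The cytosolic and mitochondrial sums did not overlap between genotypes, and the peroxisomal sums did. As the cytosolic sum holds Acot1 and the mitochondrial sum Acot2, nothing is read from this. Of all genes tested, 20% did not overlap. Without Acot1 the cytosolic sum was 24.7 ± 1.48 and 28.0 ± 0.378, a ratio of 1.13. Without Acot2 the mitochondrial sum was 260 ± 13.4 and 291 ± 21.7, a ratio of 1.12. Neither of these reduced sums overlapped between genotypes. With the length of the main coding transcript the cytosolic sums were 44.8 and 59.4, the mitochondrial 308 and 363 and the peroxisomal 6.66 and 7.17.

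Mitochondrial members made up 89.9% of the summed level in α1r/rα2s/s and 89.1% in α1s/sα2s/s hearts, cytosolic members 8.85% and 9.78%, and peroxisomal members 1.202% and 1.09%. Acot13 alone made up 75.7% and 71.7%. The cytosolic members other than Acot1 held 7.37 to 7.66% of the whole family's sum in α1r/rα2s/s and 6.63 to 7.40% in α1s/sα2s/s hearts, overlapping. That whole sum still holds Acot1 and Acot2, which lowers the α1s/sα2s/s shares. The higher cytosolic share includes Acot1, by which the family was chosen, and nothing is read from it. Each compartment held 2 tested members with a positive and 1 with a negative log2 fold change. The medians were 0.22 for the cytosolic (range -0.20 to 1.22), 0.18 for the mitochondrial (-0.16 to 0.68) and 0.15 for the peroxisomal members (-0.18 to 0.27), beside -0.01 over all tested genes. The first 2 medians include Acot1 and Acot2, which were chosen or known to differ. Without Acot1 the cytosolic and without Acot2 the mitochondrial median was 0.01, over 2 genes of opposite sign each.

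**Figure D4:**
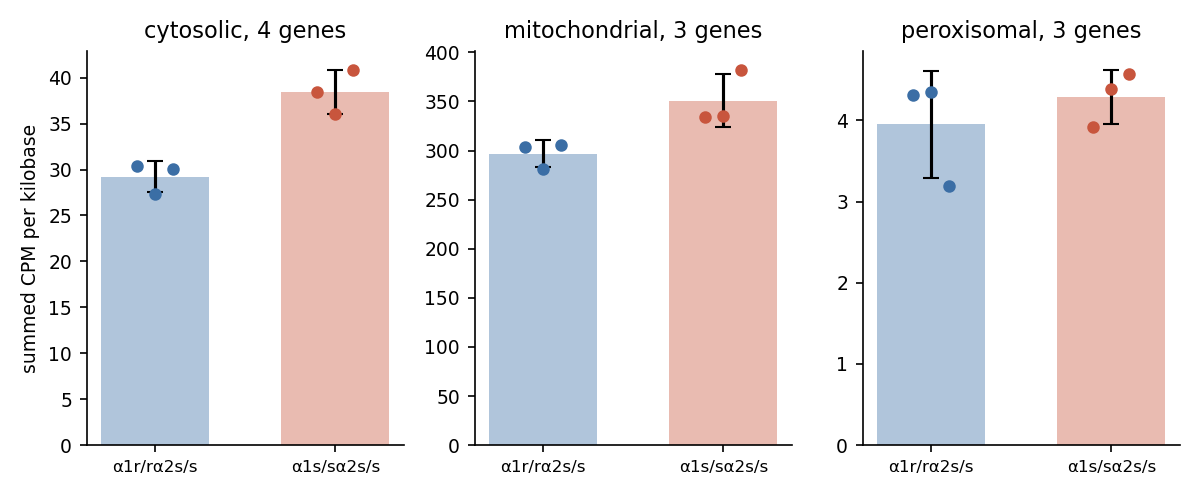
Summed CPM per kilobase of the members in each compartment, with bars for the mean, error bars for the SD (n = 3) and points for the single hearts; each panel has its own axis starting at 0. The cytosolic sums (27.3 to 30.4 against 36.1 to 40.9) and mitochondrial sums (281 to 306 against 335 to 383) do not overlap between genotypes, while the peroxisomal sums do. The cytosolic sums hold Acot1 and the mitochondrial sums Acot2, and 20% of all genes tested do not overlap.

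By fold type, the 4 type I genes summed to 42.7 ± 3.74 CPM per kilobase in α1r/rα2s/s and 71.2 ± 10.5 in α1s/sα2s/s hearts, and their share of the family went from 12.9 to 18.0%. The 6 type II genes summed to 287 ± 14.7 and 322 ± 22.3. The type I sum carries Acot1 and Acot2, and its median log2 fold change of 0.48 lay between that pair and the 2 peroxisomal genes. For the 5 tested type II genes the median was 0.15.

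Other genes that make, move, bind or use acyl-CoA were counted in lists drawn up with earlier results of these data known. Their counts stand beside 0.78% of all tested genes called higher and 0.659% called lower, and are descriptions of lists that are not independent of these data. Of the 13 other thioesterase genes listed, 6 were tested and 0 passed edgeR's test, with a median log2 fold change of -0.02. The one nearest to it, Ppt2, a lysosomal thioesterase, differed by 0.47 on the log2 scale (SE 0.14, adjusted p = 0.133) and was picked out after its values were seen. Of 14 tested acyl-CoA synthetases, which form the substrates of the family, 1 was called higher and 0 lower. This was Slc27a1, a fatty acid transporter and acyl-CoA synthetase, at 136 ± 11.3 and 193 ± 16.9 CPM (log2 fold change 0.50, adjusted p = 0.0073 by edgeR).

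Of the 8 genes of the carnitine shuttle, which carries acyl groups into mitochondria, 0 were called and 6 had a positive log2 fold change. Of the 14 of mitochondrial β-oxidation, 0 were called, with a positive log2 fold change in all 14 and a median of 0.14. Of the 15 tested peroxisomal β-oxidation genes, 1 was called higher, Ehhadh, the bifunctional enzyme of that pathway (22.5 ± 4.40 and 35.3 ± 6.92 CPM, log2 fold change 0.65, adjusted p = 0.0468 by edgeR). None of the 11 tested genes of coenzyme A synthesis and breakdown was called, 10 of them having a positive log2 fold change, with a median of 0.20.

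Fatty acid binding and lipid droplets were represented by 20 genes, 4 of which were called higher (0.78% over all genes tested) and 0 lower, with a median log2 fold change of 0.17. Pnpla2, the triglyceride lipase ATGL, was at 242 ± 16.6 and 349.9 ± 24.1 CPM (log2 fold change 0.53, adjusted p = 0.00293 by edgeR). Lipe, hormone-sensitive lipase, was at 35.7 ± 5.37 and 56.3 ± 3.64 CPM (log2 fold change 0.66, adjusted p = 0.00546 by edgeR). The others were Plin2, a lipid droplet coat protein (log2 fold change 0.50), and Fabp4, a fatty acid binding protein (0.39). The lipases release the fatty acids from which acyl-CoA is made.

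White fat expresses Pnpla2, Lipe, Plin2 and Fabp4 too. The 6 white adipocyte markers summed to 3.37 to 5.54 CPM in α1r/rα2s/s and 3.73 to 12.2 CPM in α1s/sα2s/s hearts, overlapping. Of the 4 that were tested, 0 were called and 4 had a positive log2 fold change (median 0.71). Lep had 0 to 2 counts and Adipoq 1 to 25 counts per heart. The brown fat gene Ucp1 had 0 counts in all hearts. The part of adipocytes in these values was not tested.

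Among the 8 PPAR receptors and partners, 0 were called, with Ppara at a log2 fold change of -0.37 (adjusted p = 0.315 by edgeR) and Pparg at 0.39 (adjusted p = 0.204 by edgeR). Of the 27 tested genes listed as known PPARα targets, 5 were called higher (0.78% over all genes tested) and 0 lower, and the median log2 fold change was 0.18. The list overlaps those before it, so that Slc27a1, Plin2 and Ehhadh are counted again here.

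Pdk4, the kinase that holds pyruvate dehydrogenase inactive, was also among them, at 999, 1126 and 455 CPM in the α1r/rα2s/s and 2114, 1351 and 2123 CPM in the α1s/sα2s/s hearts (log2 fold change 1.12, adjusted p = 0.0333 by edgeR). As for Acot1, mouse 380 was the lowest and mouse 381 the highest α1s/sα2s/s heart, though for Pdk4 mouse 379 was nearly equal to mouse 381. In α1r/rα2s/s hearts Pdk4 ranged more widely than Acot1, with mouse 370 lowest for both. The highest of these hearts differed, being mouse 369 for Pdk4 and mouse 368 for Acot1.

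**Figure D5:**
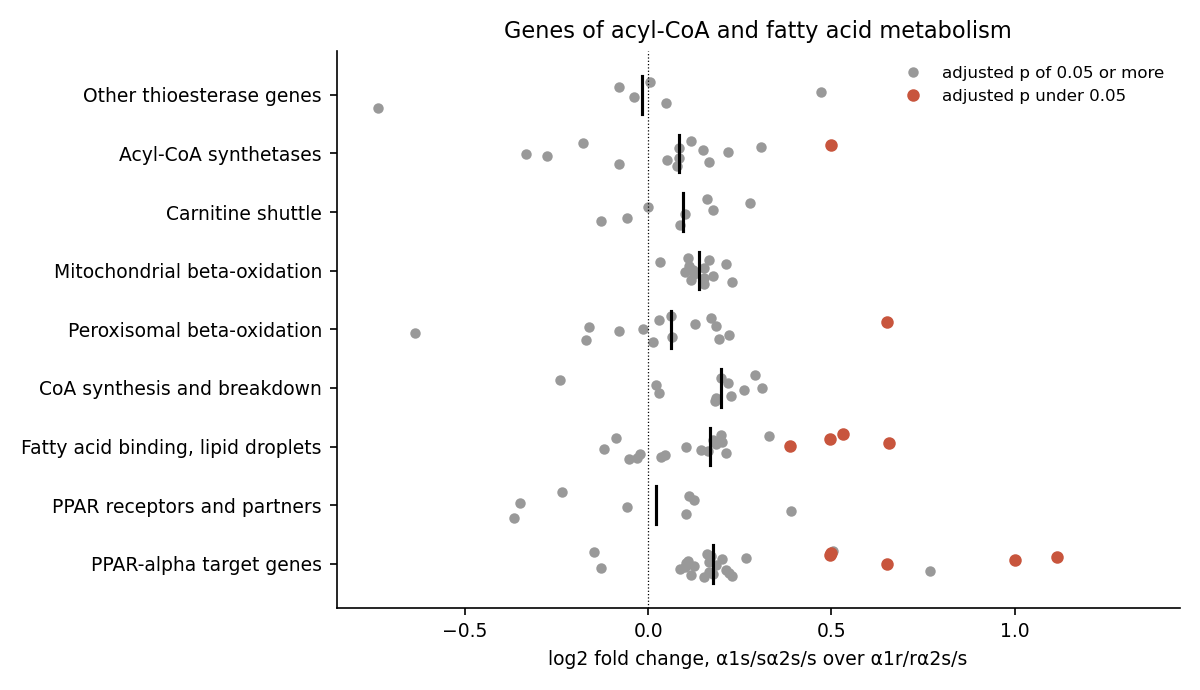
Log2 fold change of α1s/sα2s/s over α1r/rα2s/s hearts for every tested gene of 9 lists around the thioesterases, one point per gene, red where the adjusted p was under 0.05, with a black bar at the median of each list. All called genes lie to the right of 0, and the medians lie between -0.02 (other thioesterases) and 0.20 (coenzyme A synthesis and breakdown).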

How the data were processed

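Whole-heart RNA-seq of 3 α1r/rα2s/s and 3 α1s/sα2s/s mice was analysed, each heart being grouped by its label. The authors deposited raw counts per gene. The submitters' processing notes name fastp, STAR and featureCounts, and the build mm10. Versions, read length and use of strand are not given in the sources used here. A second deposited table with the authors' own comparison (means, fold changes and p-values) was not used.

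The family members and gene lists were chosen with earlier results of these data known. Counts were tested in R 4.3.3 with edgeR 4.0.16, by its quasi-likelihood test of genotype after TMM scaling. Genes had to pass filterByExpr, set to a minimum count of 10 and a total of 15. P-values had Benjamini-Hochberg adjustment over all genes tested and a threshold of 0.05. CPM used the same TMM factors, and a prior count of 2 was added for log2 values. The standard error was the log2 fold change divided by the square root of F. The script was tested on simulated data. Alternatives included DESeq2 1.42.0. Each library came from a separately numbered mouse. An exact two-sided permutation test of 3 against 3 cannot go below 0.1 and was not used. Positions are on GRCm38; all 10 members had the same coordinates in GENCODE M21. Coding identity was computed from aligned transcripts with Biopython 1.88, and words were compared on both strands. Named genes were all members, the 5 protein-coding genes most correlated with Acot1, and, from each list, at most 3 called genes by p, with further called genes named to complete small counts. One called gene of these lists is not reported here.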

Additional observations from a re-analysis of the deposited data

How the results depend on the processing

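Acot1 kept a log2 fold change of 1.203 to 1.22 and Acot2 one of 0.67 to 0.69 over 7 alternatives (RLE or upper-quartile factors, DESeq2, no filter, at least 10 counts in every heart, mitochondrial and globin genes left out, a robust prior). Leaving out each heart gave 1.07 to 1.37 and 0.59 to 0.79. These ranges describe the genes for which the family was chosen. The other tested members passed the threshold in none of these fits, each with an unchanged sign, though DESeq2 gave no adjusted p for Acot4. The number of all genes called was less stable, with 403 by DESeq2, 618 without a filter and 80 to 158 on leaving out each heart, against 214. With Acot1 to Acot6 counts added into 1 feature, the value standing for Acot6 turned to 0.74 and that for Acot4 passed the threshold at the same value, by construction, since Acot2 supplies most counts. Without 1 heart, the log2 fold change ranged from 0.06 to 0.57 for Acot4, from -0.39 to -0.02 for Acot6 and from -0.32 to -0.08 for Acot11. The medians ranged from 0.19 to 0.25 for cytosolic, 0.12 to 0.23 for mitochondrial and 0.06 to 0.23 for peroxisomal members. With the length of the main coding transcript, chosen after seeing the data, Acot11 ranked 6 and Acot8 ranked 7 in α1s/sα2s/s hearts, and the cytosolic share of the family was 12.5% and 13.8%. No paired analysis was possible because the labels do not give the litter of each mouse. The paper's methods describe the controls as littermates, while its RNA-seq section calls them age-matched. The mouse numbers are consecutive within each genotype. An effect of litter or handling order that followed these numbers cannot be told apart from genotype. Depth limits Acot4, Acot6 and Acot12 most.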
